A study of Mus musculus with 6 samples.

Results

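The 5 genes described here are Ccl2, Ccl7, Ccl12 and Ccl8, mouse CC chemokines that attract monocytes and related leukocytes, and Ccr2, the chemokine receptor of inflammatory monocytes. They were taken by symbol from the deposited feature list, where all 5 were found among 32285 genes. The libraries came from kidneys of C57BL/6J mice aged 8 weeks, 3 from mice in which rhabdomyolysis, that is, damage to skeletal muscle that releases its contents into the blood, had injured the kidneys, and 3 from control mice. The sort kept live cells positive for CD45, which leukocytes bear on their surface, and each library was made by droplet-based 3' RNA sequencing. The labels name neither the inducing agent, nor the time after injury, nor what the control mice received. Whether the 3 libraries within each group come from different animals is not given, so a p-value here speaks of library-to-library spread, which may be technical.

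Chemokines are small secreted proteins that bind receptors coupled to G proteins on leukocytes and direct their movement. Ccl2, Ccl7 and the mouse chemokine Ccl12 act through Ccr2, which lets Ly6c-high monocytes leave the bone marrow and enter injured tissue, while mouse Ccl8 is best known as a ligand of Ccr8. In the kidney, monocytes that enter in this way can become macrophages beside the resident ones. The 4 chemokine genes lie in a single cluster on chromosome 11, per RefSeq on the GRCm38.p6 build. There Ccl2 spans chr11:82035577-82037452, Ccl7 chr11:82045712-82047525, Ccl12 chr11:82101845-82103399 and Ccl8 chr11:82115185-82116799. Ccr2 spans chr9:124101918-124109140.

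Depth was 10816727, 15928192 and 22656666 gene UMIs (unique molecular identifiers, 1 per captured transcript) in rhabdomyolysis libraries 1, 2 and 3, against 19427318, 17045151 and 16666253 in control libraries 1, 2 and 3. After the filters, 1002, 1499 and 1472 cells remained in rhabdomyolysis libraries and 3361, 2776 and 2213 in control libraries. The filter on Malat1, an abundant nuclear RNA whose loss marks barcodes without a nucleus, had removed 845, 956 and 2789 barcodes from rhabdomyolysis libraries and 702, 836 and 1085 from control libraries. Ptprc, which encodes CD45, stood at 234, 222 and 368 CPM (UMIs scaled to a total of 1000000 per sum of cells) over all cells of rhabdomyolysis libraries, against 726.9, 806.2 and 769.4 CPM in control libraries. Cells were gated by UMIs of marker panels that hold none of the 5 genes. The macrophage gate took 248, 255 and 268 cells in rhabdomyolysis libraries and 1284, 966 and 688 in control libraries. The classical monocyte gate took 156, 192 and 244 cells in rhabdomyolysis libraries, against 8, 6 and 2 in control libraries, too few for a test of condition in that class. Used cells of any pair of libraries shared at most 4 barcodes.

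Ccl2, the main ligand of Ccr2, was higher in rhabdomyolysis in macrophages, in other myeloid cells and over all cells. Macrophages carried 1677, 963 and 2164 CPM of Ccl2 in rhabdomyolysis libraries, against 138, 39.2 and 132 CPM in control libraries. Every rhabdomyolysis library lay above every control library. The log2 change was 4.04 ± 0.49 (SE, 3 against 3 libraries), with an adjusted p of 0.00036 in edgeR's quasi-likelihood test. Of all 9465 genes tested in macrophages 40.0% were called, so a call by itself does not set a gene apart there. All 5 genes were among those called: Ccl2, Ccl7 and Ccl12 were higher, as were 21.0% of genes tested, and Ccl8 and Ccr2 were lower, as were 19.0%.

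The same gene was higher in myeloid cells that met no class panel, here called other myeloid cells, a class added after seeing the data. The class depends on the gate and does not stand apart from macrophages. When panels had to exceed only 20% of the level of free RNA (RNA outside cells), its mean share of Ccl2 UMIs in rhabdomyolysis libraries was 3.81%, against 26.4%. That of macrophages was 37.8%, against 18.7%. Other myeloid cells carried 2407, 1096 and 1782 CPM of Ccl2 in rhabdomyolysis libraries and 82.6, 71.7 and 79.7 CPM in control libraries, a log2 change of 4.61 ± 0.29 (edgeR, adjusted p = 1.1e-05), where 35.5% of genes were called. Classical monocytes of rhabdomyolysis libraries, a class named by its gate alone, carried 4001, 4083 and 4163 CPM of Ccl2, close to each other in all 3 libraries. With cells cut to equal depth, the monocyte gene Ly6c2 was found in 8, 25 and 27 of these cells and not in 147, 165 and 217. Whether the gated cells were monocytes or cells derived from them was not tested. The 16 monocyte-gated cells of the control libraries carried 482, 234 and 1182 CPM, which rests on 62 UMIs. Dendritic cells, which present antigen to T cells, carried 195, 137 and 99.6 CPM in rhabdomyolysis libraries and 66.2, 61.6 and 34.8 CPM in control libraries. Rhabdomyolysis library 1 held too few dendritic cells for the test, and the other libraries gave a log2 change of 1.06 ± 0.29 (edgeR, adjusted p = 0.040, 7.40% of genes called). It passed in 7 of 15 alternatives; without rhabdomyolysis library 2, which leaves library 3 alone and assumes that it varies like the control libraries, the change was 0.83 (adjusted p = 0.13), and without control library 1, 2 or 3 it was 1.22, 1.15 or 0.85 (adjusted p = 0.073, 0.12 and 0.099).

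Lymphocytes held little Ccl2. B cells, which stand here for cells that should lack the gene, carried 0, 4.72 and 42.8 CPM in rhabdomyolysis libraries and 0.771, 0 and 1.33 CPM in control libraries. T cells passed the test for Ccl2 with a log2 change of 5.98 ± 1.02 (edgeR, adjusted p = 0.0010, 9.90% of genes called). That call rests on 37 UMIs in rhabdomyolysis library 2, of which 34 lay in a single cell, and without that library the gene did not pass the filter on low counts. Neutrophils carried 12.4, 49.3 and 264 CPM in rhabdomyolysis libraries; those of the control libraries numbered 11, 10 and 9 cells and were not tested. Over all used cells Ccl2 stood at 2262, 1583 and 2083 CPM in rhabdomyolysis libraries, against 72.7, 36.3 and 66.0 CPM in control libraries. The log2 change there was 5.38 ± 0.30 (edgeR, adjusted p = 5.3e-06), with 45.8% of 12043 genes called. In a sum over all cells, more cells of a type and more RNA per cell cannot be told apart.

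**Figure D1:**
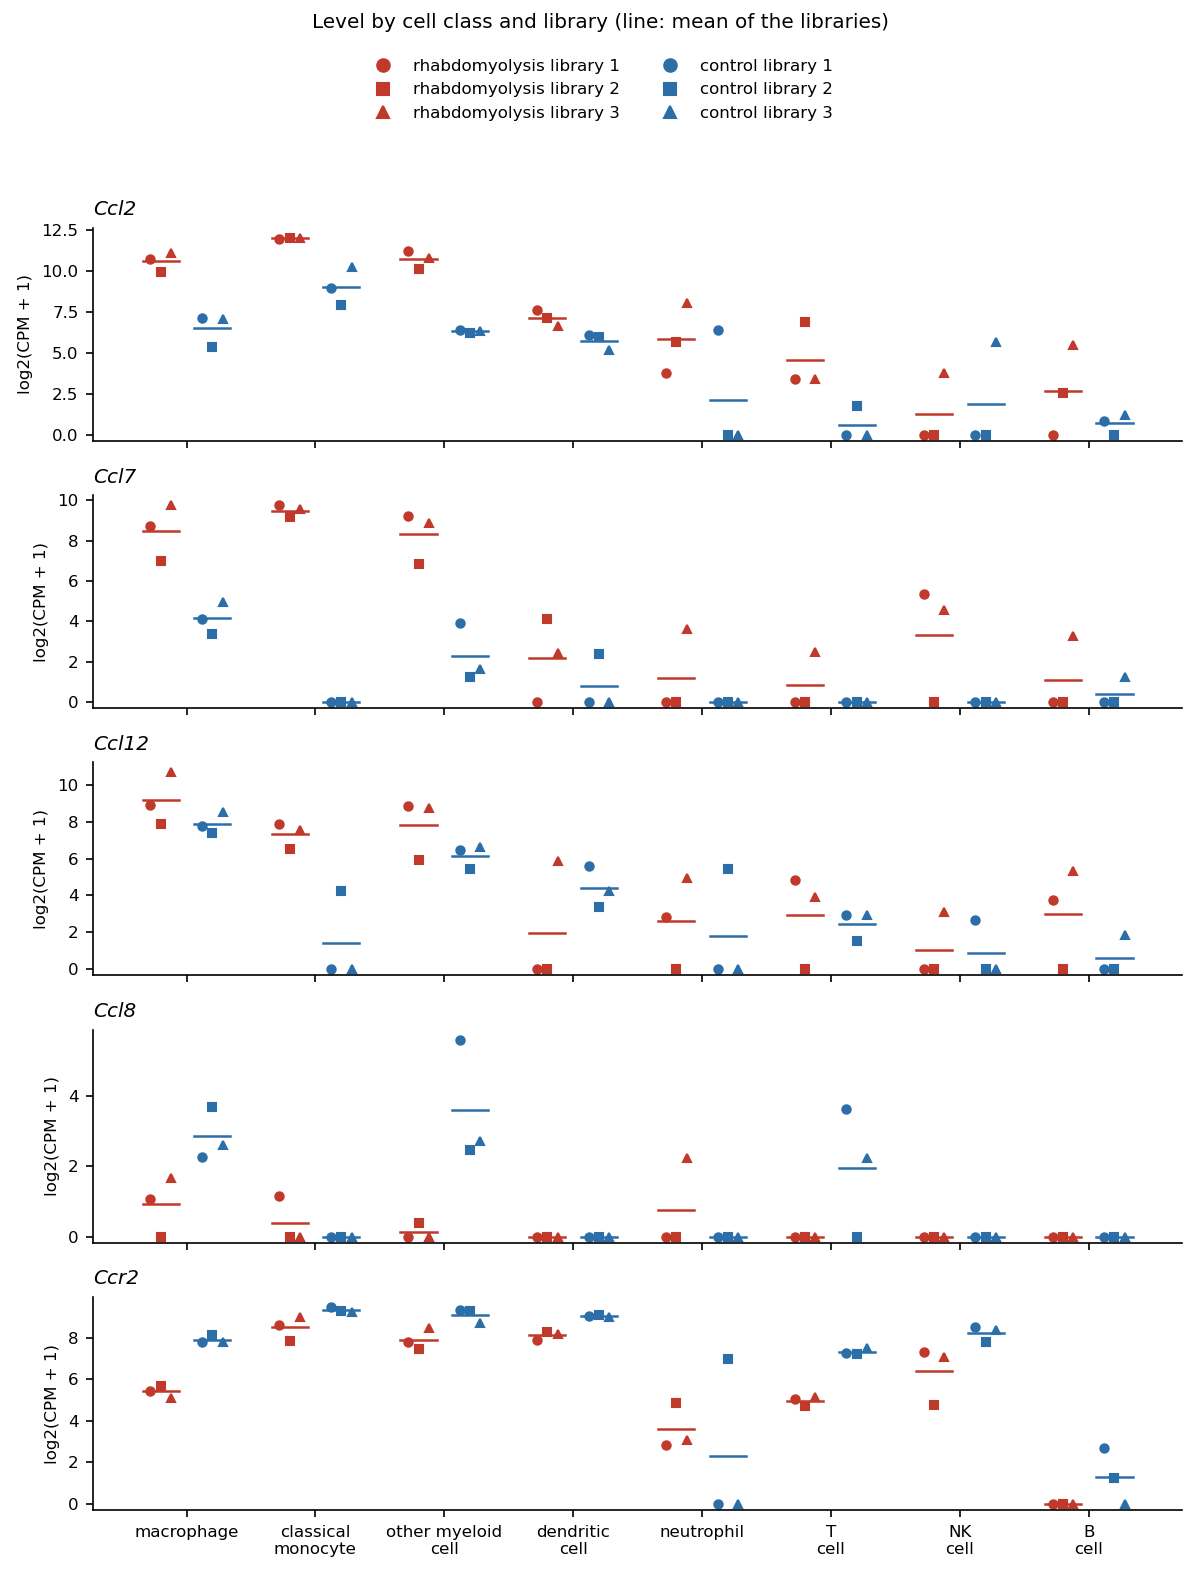
Level of each gene as log2(CPM + 1) by cell class, rhabdomyolysis libraries in red and control libraries in blue, with 1 point for each library and a line at the mean of the 3 points. Ccl2 and Ccl7 points of rhabdomyolysis libraries stand above those of control libraries in macrophages and other myeloid cells, and Ccr2 points stand below them in macrophages, dendritic cells, T cells and NK cells.

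Ccl7, which binds Ccr2 and also Ccr1, moved with Ccl2. Macrophages carried 420, 125 and 875 CPM of Ccl7 in rhabdomyolysis libraries, against 16.3, 9.29 and 30.3 CPM in control libraries. The groups did not overlap, and the rhabdomyolysis libraries spread over a wider range than the control libraries. The log2 change was 4.76 ± 0.69 (edgeR, adjusted p = 0.00089). In other myeloid cells the level was 599, 112 and 467 CPM in rhabdomyolysis libraries and 14.1, 1.37 and 2.08 CPM in control libraries, a log2 change of 6.14 ± 0.79 (edgeR, adjusted p = 0.00046). Classical monocytes of rhabdomyolysis libraries carried 865, 567 and 756 CPM, while none of the 16 control cells had a Ccl7 UMI. Over all used cells the log2 change was 5.99 ± 0.51 (edgeR, adjusted p = 4.6e-05). Ccl7 was not tested in dendritic cells, T cells, NK cells or B cells, where it held at most 9 UMIs in any library.

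Ccl12, the mouse chemokine also called MCP-5, behaved differently from Ccl2 and Ccl7. Macrophages carried 477, 234 and 1646 CPM in rhabdomyolysis libraries, against 216, 169 and 362 CPM in control libraries. Rhabdomyolysis library 3 was far above all others and library 2 lay inside the control range. The log2 change was 1.72 ± 0.60 (edgeR, adjusted p = 0.045), and without rhabdomyolysis library 3 it was 0.63 with an adjusted p of 0.22. Leaving out rhabdomyolysis library 1 or control library 1, 2 or 3 also ended the call, with changes of 1.98, 1.56, 1.48 and 2.07 (adjusted p = 0.067, 0.14, 0.16 and 0.058). In other myeloid cells the levels were 466, 58.9 and 434 CPM in rhabdomyolysis libraries and 87.1, 42.0 and 96.97 CPM in control libraries, again overlapping through library 2, with a log2 change of 2.19 ± 0.63 (edgeR, adjusted p = 0.022) that was lost without rhabdomyolysis library 1 (1.86, adjusted p = 0.073) and without control library 1 or 2 (2.29 and 1.88, adjusted p = 0.067 and 0.099). With panels gated against 20% of the free RNA level, an alternative added after seeing the data, it was 1.49 (adjusted p = 0.19). Classical monocytes of rhabdomyolysis libraries carried 235, 92.1 and 185 CPM. Over all used cells Ccl12 passed with a log2 change of 1.89 ± 0.55 (edgeR, adjusted p = 0.020), lost without rhabdomyolysis library 1 or 3 (1.82 and 1.32, adjusted p = 0.069 and 0.070) or control library 1 or 2 (1.84 and 1.66, adjusted p = 0.068 and 0.080). In dendritic cells the change of 0.47 ± 0.75 missed the threshold (edgeR, adjusted p = 0.78). Macrophages and classical monocytes joined gave 1.02 ± 0.50 for Ccl12 (edgeR, adjusted p = 0.11, 54.4% of genes called), and 1.45 without rhabdomyolysis library 2 (adjusted p = 0.00096). Classical monocytes were 592 of the 1366 joined cells in rhabdomyolysis libraries and 16 of 2954 in control libraries. For every change given for the joined class, cell make-up and RNA per cell therefore cannot be told apart.

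Ccl8 was rare in cells with nuclear RNA. Macrophages held 2, 0 and 5 Ccl8 UMIs in rhabdomyolysis libraries, or 1.11, 0 and 2.17 CPM, against 3.83, 11.8 and 5.05 CPM in control libraries. The fitted log2 change of -2.38 ± 0.74 passed the edgeR test (adjusted p = 0.029), but with Malat1-poor barcodes kept it was -0.01 (adjusted p = 0.99). Without rhabdomyolysis library 1 the change was -2.35 and missed the threshold (adjusted p = 0.096). Those Malat1-poor barcodes carried 36.1, 12.9 and 17.3 CPM of Ccl8 in rhabdomyolysis libraries and 61.8, 62.9 and 25.0 CPM in control libraries. Over all used cells the log2 change was -3.56 ± 0.59 (edgeR, adjusted p = 0.0014) and with Malat1-poor barcodes kept it was -0.60 (adjusted p = 0.25). In control library 1, 71 Ccl8 UMIs of the other myeloid cells lay in a single cell.

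Ccl12 and Ccl8 are neighbours on chromosome 11, and their promoters are shown because these neighbouring genes were called in opposite directions in macrophages. The 250 bases before each start are from RefSeq on the GRCm38.p6 build, plus strand, 5' to 3', with the TATA box (TATAAAA) in capitals. Ccl12 lies at chr11:82101595-82101844 and Ccl8 at chr11:82114935-82115184.
Ccl12: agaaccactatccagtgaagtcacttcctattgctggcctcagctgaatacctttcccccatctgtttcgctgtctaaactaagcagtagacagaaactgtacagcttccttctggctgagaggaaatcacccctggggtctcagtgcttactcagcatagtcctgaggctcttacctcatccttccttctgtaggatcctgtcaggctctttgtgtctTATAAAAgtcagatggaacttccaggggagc
Ccl8: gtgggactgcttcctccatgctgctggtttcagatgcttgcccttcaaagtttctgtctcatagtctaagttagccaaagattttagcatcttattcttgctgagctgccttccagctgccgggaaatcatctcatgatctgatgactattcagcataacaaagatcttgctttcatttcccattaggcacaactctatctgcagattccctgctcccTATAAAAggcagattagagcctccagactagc

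The TATA box ran from -31 to -25 in Ccl12 and from -32 to -26 in Ccl8, counted from the start. It was searched after the sequences were seen, and 4.98% of 32851 promoters in the table held it on either strand. Neither window held the letters TGANTCA of an AP-1 site (6.75% of promoters), the kappa B consensus (7.25%) or an interferon response element (2.98%), each searched on both strands. These are matches of letters and say nothing of binding.

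Ccr2 was lower in rhabdomyolysis in macrophages, T cells, dendritic cells, NK cells and other myeloid cells, while the change missed the threshold over all cells and in macrophages and classical monocytes joined. Macrophages carried 43.2, 51.1 and 32.99 CPM of Ccr2 in rhabdomyolysis libraries, against 223, 286 and 222 CPM in control libraries. All rhabdomyolysis libraries were low and the groups lay far apart. The log2 change was -2.45 ± 0.21 (edgeR, adjusted p = 7.2e-05), and -1.57 with panels gated against 20% of the free RNA level (adjusted p = 0.0013). In T cells Ccr2 stood at 32.5, 25.1 and 34.9 CPM in rhabdomyolysis libraries and 152, 147 and 181 CPM in control libraries, a log2 change of -2.16 ± 0.23 (edgeR, adjusted p = 1.3e-05). Here too no library of one group reached the other.

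Dendritic cells kept more of the receptor transcript, with 242, 307 and 290 CPM in rhabdomyolysis libraries and 535, 557 and 509 CPM in control libraries. The log2 change was -0.84 ± 0.16 without rhabdomyolysis library 1 (edgeR, adjusted p = 0.0070), and without control library 1 or 2 it was -0.85 or -0.82 (adjusted p = 0.051 for each). Other myeloid cells carried 222, 175 and 356 CPM in rhabdomyolysis libraries and 640.3, 619.5 and 423 CPM in control libraries, with a log2 change of -1.04 ± 0.25 (edgeR, adjusted p = 0.010), and -0.98 without control library 2 (adjusted p = 0.053). NK cells carried 161, 25.9 and 134 CPM in rhabdomyolysis libraries and 372, 222 and 338 CPM in control libraries. Library 2 of rhabdomyolysis had too few NK cells for the test, and the rest gave -0.97 ± 0.25 (edgeR, adjusted p = 0.028, 6.05% of genes called), a call lost in 6 of 16 alternatives. Without rhabdomyolysis library 3, which leaves library 1 alone under the same assumption, the change was -0.84, and without control library 1 or 3 it was -0.80 or -0.93 (adjusted p = 0.30, 0.14 and 0.081).

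Classical monocytes of rhabdomyolysis libraries carried 399.5, 233 and 521 CPM of Ccr2, against 724, 631 and 619 CPM in the 16 control cells, a difference that was not tested. B cells held no Ccr2 UMI in 219 cells of rhabdomyolysis libraries and 8 UMIs in 894 cells of control libraries. Neutrophils of rhabdomyolysis libraries carried 6.19, 27.7 and 7.43 CPM. Over all used cells Ccr2 stood at 193, 143 and 273 CPM in rhabdomyolysis libraries and 281, 334 and 249 CPM in control libraries. The groups overlapped, and the log2 change was -0.21 ± 0.21 (edgeR, adjusted p = 0.44). Macrophages and classical monocytes joined gave -0.01 ± 0.22 (edgeR, adjusted p = 0.97), in a sum whose share of monocytes differed between the groups.

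**Figure D2:**
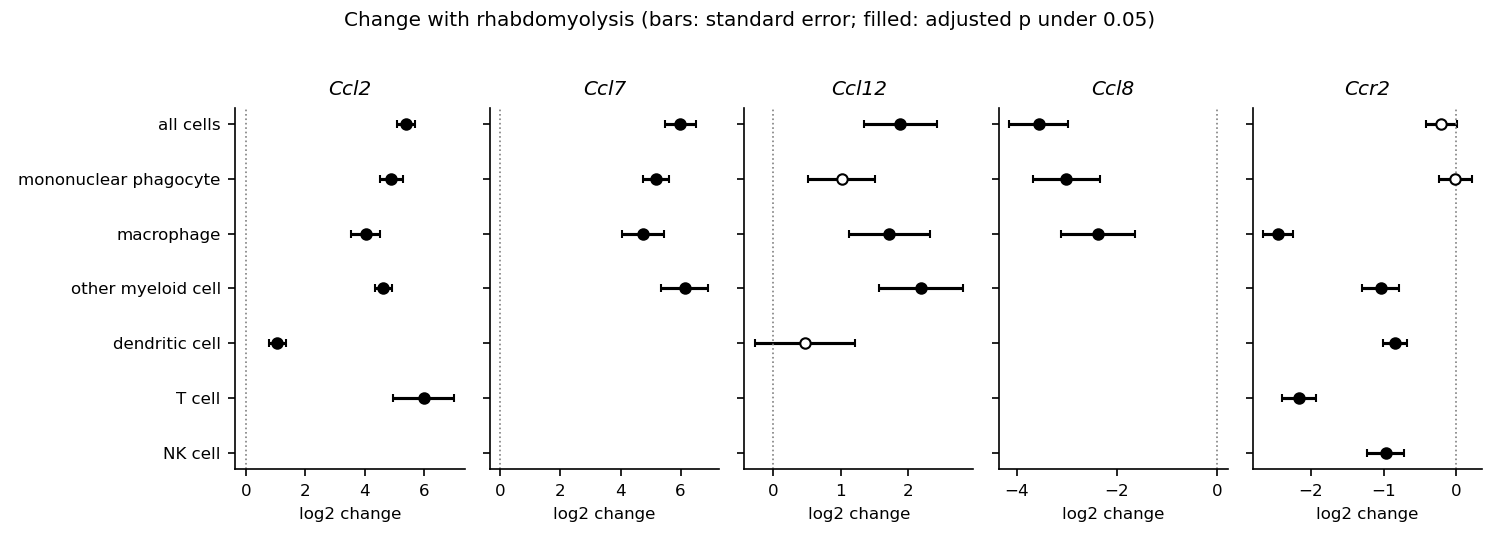
Log2 change with rhabdomyolysis of each gene, on an axis of its own for each gene, over all cells and by class, with standard errors from edgeR; filled points passed at an adjusted p under 0.05. Ccl2 and Ccl7 lie right of 0 in each class shown, and Ccr2 lies left of 0 in macrophages, other myeloid cells, dendritic cells, T cells and NK cells but close to 0 over all cells and in macrophages and monocytes joined (mononuclear phagocyte).

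With the gate used here, the change of Ccr2 differed between classes when the difference itself was tested. The change in macrophages depends on the gate. It was -2.45 here and -1.57 with panels gated against only part of the free RNA level. The differences between classes were not tested with that other gate, so their size there is not known. In dendritic cells the change was 1.77 ± 0.24 higher on the log2 scale than in macrophages (edgeR, interaction with library as block, 5 libraries, adjusted p = 4.0e-05), where 12.0% of genes differed. In NK cells it was 1.87 ± 0.31 higher than in macrophages (edgeR, 5 libraries, adjusted p = 2.1e-07, 6.77% of genes), and 1.54 higher without rhabdomyolysis library 3, which again leaves 1 rhabdomyolysis library (adjusted p = 0.13). T cells and macrophages differed by 0.19 ± 0.34 (edgeR, 6 libraries, adjusted p = 0.75, 23.0% of genes), a difference that missed the threshold. For Ccl2 the change in dendritic cells minus that in macrophages was -2.94 ± 0.49 (edgeR, adjusted p = 0.00041).

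Among cells of the rhabdomyolysis libraries, ligands and receptor were laid out differently. Ccr2 was higher in classical monocytes than in macrophages by a log2 difference of 3.20 ± 0.31 (edgeR, library as block, 3 libraries, adjusted p = 0.00014; 2.04 with the gate against 20% of free RNA), where 24.3% of genes differed between the classes. Ccl2 was also higher in monocytes, by 1.49 ± 0.19 (edgeR, adjusted p = 0.00065). Ccl12 was lower in monocytes, with a log2 difference of -1.78 ± 0.35 (edgeR, adjusted p = 0.0068; -1.13 without rhabdomyolysis library 3), and the Ccl7 difference of 1.05 ± 0.35 missed the threshold (edgeR, adjusted p = 0.062), and was 1.64 without rhabdomyolysis library 3 (adjusted p = 3.7e-06). By mean level, and among the 8 classes plotted by library, Ccl2 in rhabdomyolysis libraries was highest in classical monocytes, followed by other myeloid cells, macrophages and dendritic cells, and other myeloid cells and macrophages overlapped. For Ccl12 macrophages stood first, followed by other myeloid cells and classical monocytes, with each of these neighbours overlapping. Within libraries, other myeloid cells were below macrophages in Ccl12 by a log2 difference of -1.28 ± 0.30 (edgeR, library as block, adjusted p = 0.025, 10.2% of genes).

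In the control libraries dendritic cells and other myeloid cells held more receptor transcript than macrophages. Dendritic cells exceeded macrophages in Ccr2 by 1.25 ± 0.08 log2 units (edgeR, library as block, 3 libraries, adjusted p = 3.8e-15), where 48.7% of genes differed. Macrophages held more of the ligands than dendritic cells did, with log2 differences, dendritic cells minus macrophages, of -0.70 ± 0.21 for Ccl2 (adjusted p = 0.0046), -3.50 ± 0.55 for Ccl7 (adjusted p = 1.5e-06) and -3.07 ± 0.20 for Ccl12 (adjusted p = 1.3e-15), all from edgeR. The Ccl2 difference was -0.66 with DESeq2 (adjusted p = 0.57) and -0.34 without control library 3 (edgeR, adjusted p = 0.054), both missing the threshold, and -1.27 without control library 2. The Ccl7 difference was -8.84 without control library 2, and the Ccl12 difference was -6.97 with the gate against 20% of free RNA. Other myeloid cells and dendritic cells overlapped in Ccr2, and so did NK cells and macrophages.

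The cells that held the UMIs changed with the group. Classical monocytes held 47.5%, 59.9% and 52.2% of all Ccl2 UMIs of used cells in rhabdomyolysis libraries, against 2.77%, 3.17% and 3.34% in control libraries. Macrophages held 21.6%, 11.5% and 22.8% in rhabdomyolysis libraries and 71.2%, 38.1% and 70.4% in control libraries. For Ccr2 the share of classical monocytes was 55.5%, 37.8% and 49.8% in rhabdomyolysis libraries and 1.07%, 0.927% and 0.463% in control libraries, while that of macrophages was 6.52%, 6.75% and 2.66% in rhabdomyolysis libraries and 29.8%, 30.1% and 31.4% in control libraries. Classical monocytes held 26.8%, 23.2% and 26.1% of the UMIs of all genes in used cells of rhabdomyolysis libraries and at most 0.491% in control libraries. Macrophages held 41.3%, 49.9% and 66.9% of Ccl12 UMIs in rhabdomyolysis libraries and 80.8%, 85.3% and 87.1% in control libraries. T cells held 0.585%, 0.635% and 0.524% of Ccr2 UMIs in rhabdomyolysis libraries and 10.3%, 8.24% and 16.3% in control libraries. Their part of all genes was smaller in rhabdomyolysis too. T cells held 215306, 319045 and 430150 of 6191476, 8781911 and 10482032 UMIs there. In control libraries they held 2640435, 2118976 and 2138250 of 13923049, 11303089 and 9527965. Macrophages held 1806579, 1662727 and 2303496 UMIs of all genes in rhabdomyolysis libraries and 5219121, 3981875 and 3367251 in control libraries. Such shares depend on how many cells of each class passed the sort and on the gate: with panels tested against 20% of the free RNA level, the mean share of Ccl2 UMIs in macrophages was 37.8% in rhabdomyolysis libraries, against 18.7% with the gate used here, and that of Ccr2 was 21.2%, against 5.31%.

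**Figure D3:**
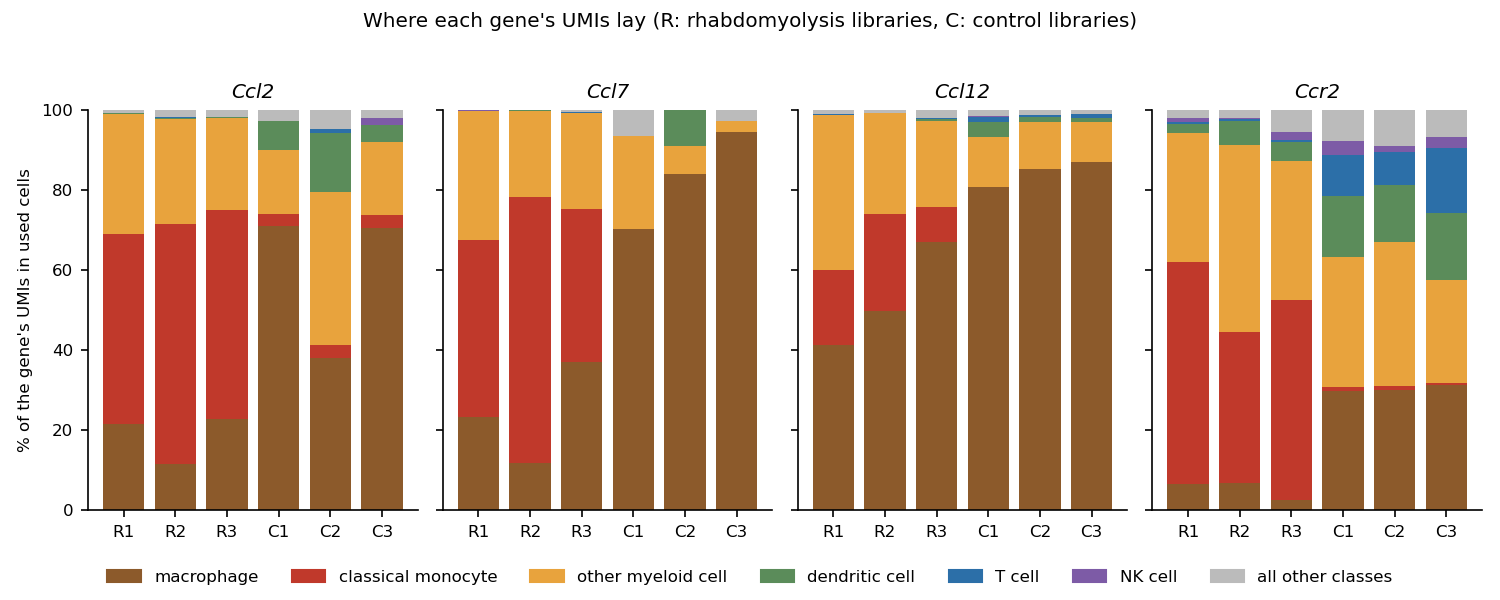
Share of the UMIs of Ccl2, Ccl7, Ccl12 and Ccr2 held by each cell class, in percent of the gene's UMIs in used cells, with 1 bar for each library, rhabdomyolysis libraries (R1 to R3) left of control libraries (C1 to C3). Classical monocytes and other myeloid cells fill most of the Ccl2, Ccl7 and Ccr2 bars of rhabdomyolysis libraries, and macrophages fill over 80% of the Ccl12 bars of control libraries.

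Detection per cell was compared after thinning each cell to 1000 UMIs, since depth differed: macrophages had medians of 6340, 5967 and 7374 UMIs in rhabdomyolysis libraries and 3730, 3838 and 4442 in control libraries. A Ccl2 UMI was found in 33.7%, 23.0% and 47.3% of macrophages in rhabdomyolysis libraries and in 7.47%, 2.44% and 5.78% in control libraries. The exact permutation test gave p = 0.10, the smallest that 3 against 3 libraries allow. Without thinning the shares of macrophages were 51.6%, 31.8% and 76.1% in rhabdomyolysis libraries and 11.99%, 5.69% and 11.6% in control libraries. Among classical monocytes of rhabdomyolysis libraries 56.8%, 53.7% and 54.9% had a Ccl2 UMI. B cells, with medians of 1890, 2275 and 2559 UMIs in rhabdomyolysis libraries and 2954, 2946 and 3166 in control libraries, gave 0%, 1.18% and 3.37% in rhabdomyolysis libraries and 0.241%, 0% and 0% in control libraries.

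For the receptor, 3.25%, 2.42% and 3.46% of macrophages of rhabdomyolysis libraries had a Ccr2 UMI after thinning, against 13.5%, 18.1% and 15.6% in control libraries (two-sided exact permutation p = 0.10, the smallest possible). T cells gave 3.95%, 2.10% and 0.855% in rhabdomyolysis libraries and 12.8%, 11.7% and 14.5% in control libraries, with the same exact p of 0.10. In no library did a thinned B cell hold a Ccr2 UMI, which allows a share of up to 7.50%, 3.53% and 3.37% in rhabdomyolysis libraries and 0.723%, 1.25% and 1.34% in control libraries. For macrophages and T cells of rhabdomyolysis libraries these shares lie near or under the limit that B cells of the same libraries allow. Ccl12 was found in 22.4%, 8.06% and 51.5% of macrophages in rhabdomyolysis libraries and in 11.6%, 7.75% and 14.96% in control libraries, which overlapped (exact permutation p = 0.30). These bounds and shares cover counting error only.

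**Figure D4:**
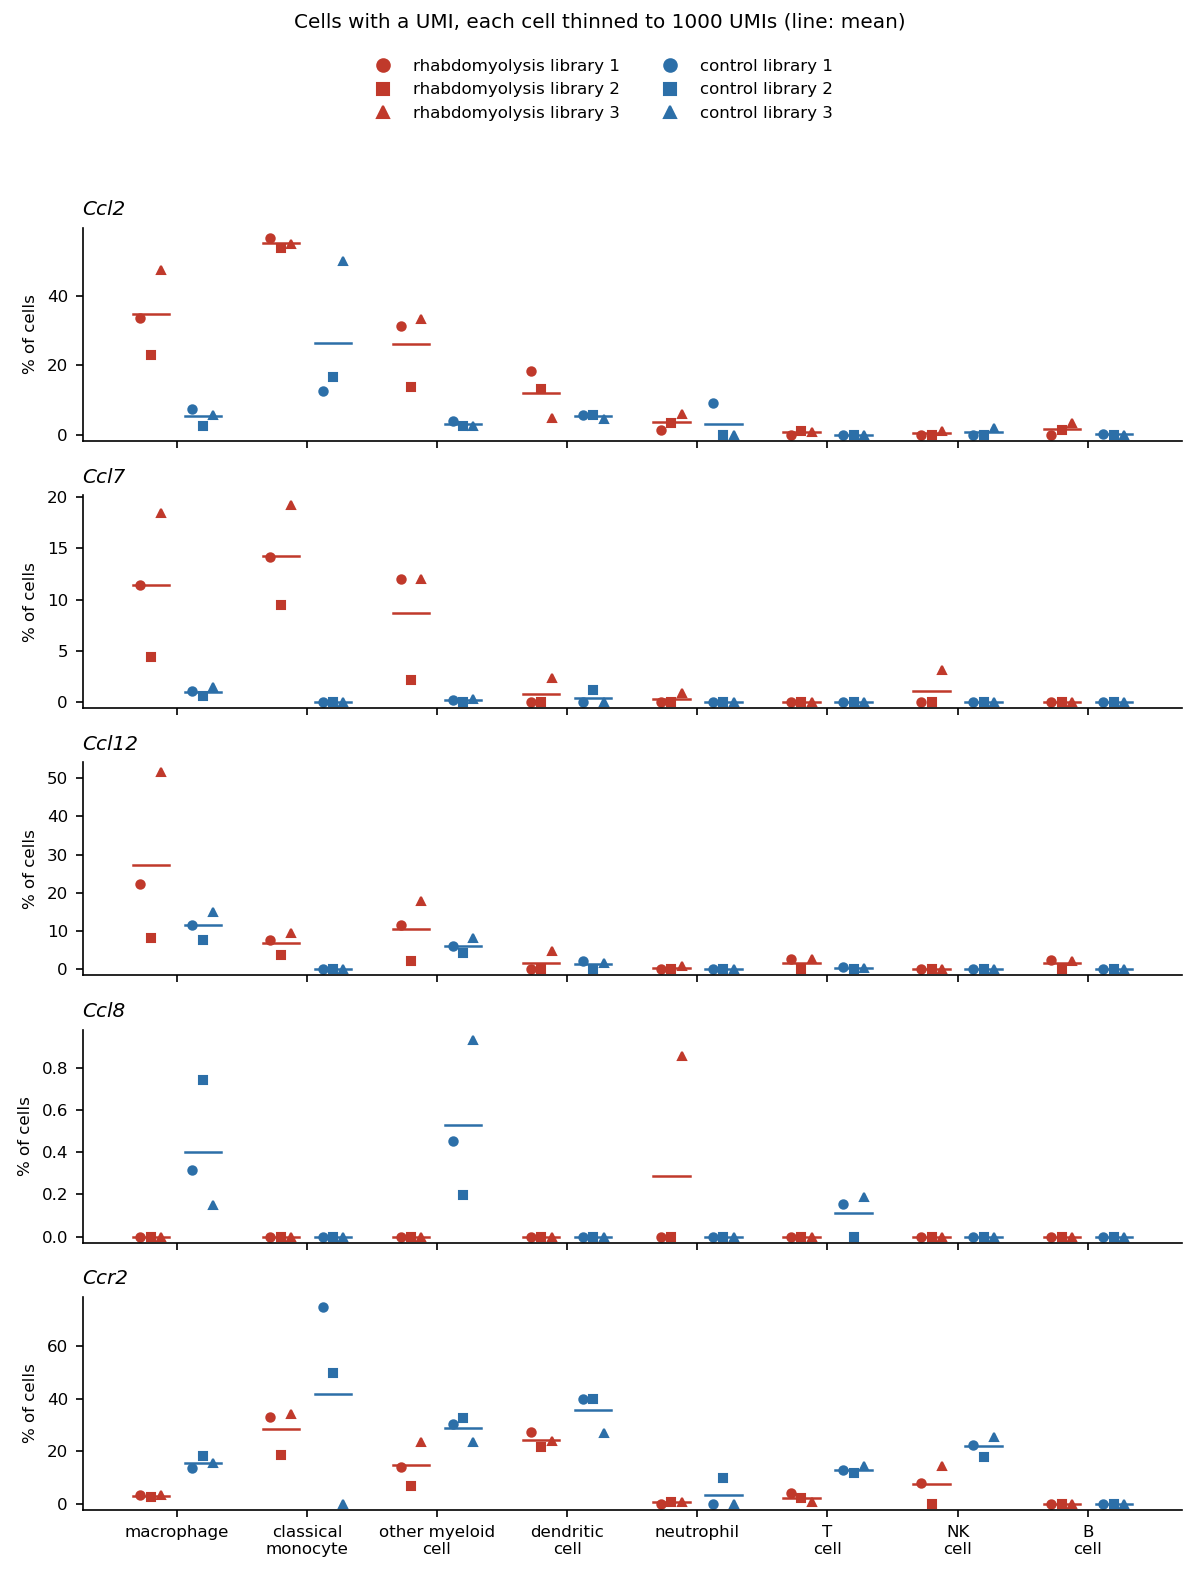
Percent of cells with at least 1 UMI of each gene, each cell thinned to 1000 UMIs, by class and library, rhabdomyolysis in red and control in blue, with lines at the means. The shares with a Ccl2 UMI stand highest in classical monocytes and macrophages of rhabdomyolysis libraries, and those of Ccr2 in macrophages and T cells stand lower in rhabdomyolysis libraries than in control libraries. The points of classical monocytes in control libraries rest on 2 to 8 cells.

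A minority of cells held most of the ligand UMIs. The 10% of macrophages with the most Ccl2 held 71.7%, 73.0% and 58.1% of its UMIs in rhabdomyolysis libraries and 96.5%, 100% and 97.5% in control libraries. Few control macrophages had any Ccl2 UMI, so there the top 10% had to hold nearly all of it. Cells were not thinned here and depth differed, so these shares do not compare the groups. In classical monocytes of rhabdomyolysis libraries that share was 58.8%, 70.3% and 54.8% for Ccl2 and 30.4%, 44.8% and 30.7% for Ccr2. The most Ccl2 in a single cell was 718 UMIs, in a classical monocyte of rhabdomyolysis library 2, against 56 in any control cell. For Ccl7 the top 10% of classical monocytes held 88.3%, 99.5% and 83.5% of its UMIs.

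Ccl7 was found more often in cells with Ccl2 than in cells without it. Of classical monocytes with a Ccl2 UMI, 23.9%, 17.6% and 34.3% also had a Ccl7 UMI in rhabdomyolysis libraries, against 1.49%, 0% and 0.909% of those without. Conversely, 95.5%, 100% and 97.9% of monocytes with Ccl7 had Ccl2, against 50.4%, 48.8% and 44.7% of those without. In macrophages of rhabdomyolysis libraries Ccl7 was found in 25.3%, 8.77% and 26.0% of cells with Ccl2 and in 4.29%, 3.14% and 11.7% of cells without. Of macrophages with Ccl7, 28, 11 and 48 cells, 75%, 45.5% and 66.7% had Ccl2, against 28.4%, 21.9% and 42.9% of those without. Ccl12 followed in the same direction, with 30.1%, 19.3% and 60.2% of Ccl2-bearing macrophages and 18.4%, 4.71% and 43.8% of the rest. Cells of a library are not replicates, so no test was made.

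In classical monocytes, Ccl2 was more frequent beside the receptor in rhabdomyolysis libraries 1 and 2 and less frequent in library 3. Ccl2 was found in 58.8%, 62.9% and 54.2% of Ccr2-bearing classical monocytes of rhabdomyolysis libraries and in 55.8%, 51.6% and 55.3% of the rest. A UMI of any of the 4 chemokines together with a UMI of Ccr2 was found in 19.4%, 11.6% and 19.7% of these monocytes and in 1.22%, 1.21% and 2.69% of macrophages. That share depends on how many cells bear Ccr2, which was 32.9%, 18.4% and 34.0% of monocytes and 3.25%, 2.42% and 3.46% of macrophages. Any of the 4 chemokines was found in 58.8%, 62.9% and 57.8% of monocytes with Ccr2. Monocytes without Ccr2 gave 60.6%, 51.6% and 56.5%. Ccl12 was less frequent beside Ccr2, both in control macrophages and in classical monocytes of rhabdomyolysis libraries. In control macrophages Ccl12 was found in 4.07%, 3.53% and 4.76% of cells with Ccr2 and in 12.8%, 8.68% and 16.8% of cells without. In those monocytes it was found in 3.92%, 2.86% and 7.23% of cells with Ccr2, which is 2, 1 and 6 cells. Among monocytes without Ccr2 it was found in 9.6%, 3.87% and 10.6%. The monocyte gate was also split by Spp1, Arg1 and Ly6c2, a choice made after seeing the data. Monocytes with Spp1, which encodes osteopontin, had Ccl2 in 81.5%, 70.0% and 74.4% of cases. Those without Spp1 had it in 43.6%, 47.9% and 43.5%. Arg1, encoding arginase 1, split the same monocytes into 85.7%, 88.9% and 87.0% with Ccl2 where Arg1 was found, in 28, 18 and 23 cells, and 50.4%, 50% and 51.6% where it was not. For Ccr2, cells with Ly6c2, a surface protein gene of young monocytes, had it in 62.5%, 28.0% and 59.3% of cases (8, 25 and 27 cells) and the rest in 31.3%, 17.0% and 30.9%. Most cells of the monocyte gate thus had no Ly6c2 UMI after thinning. At their median depth, thinning removed most UMIs of these cells, so how many held Ly6c2 at full depth cannot be read from these counts. Mean Ccl2 was 0.75, 2.4 and 1.407 UMIs in cells with Ly6c2 and 3.395, 3.527 and 3.853 in the rest. A Ccl2 UMI was found in 50%, 64% and 37.0% of cells with Ly6c2. The rest gave 57.1%, 52.1% and 57.1%, so library 2 went the other way by this measure.

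**Figure D5:**
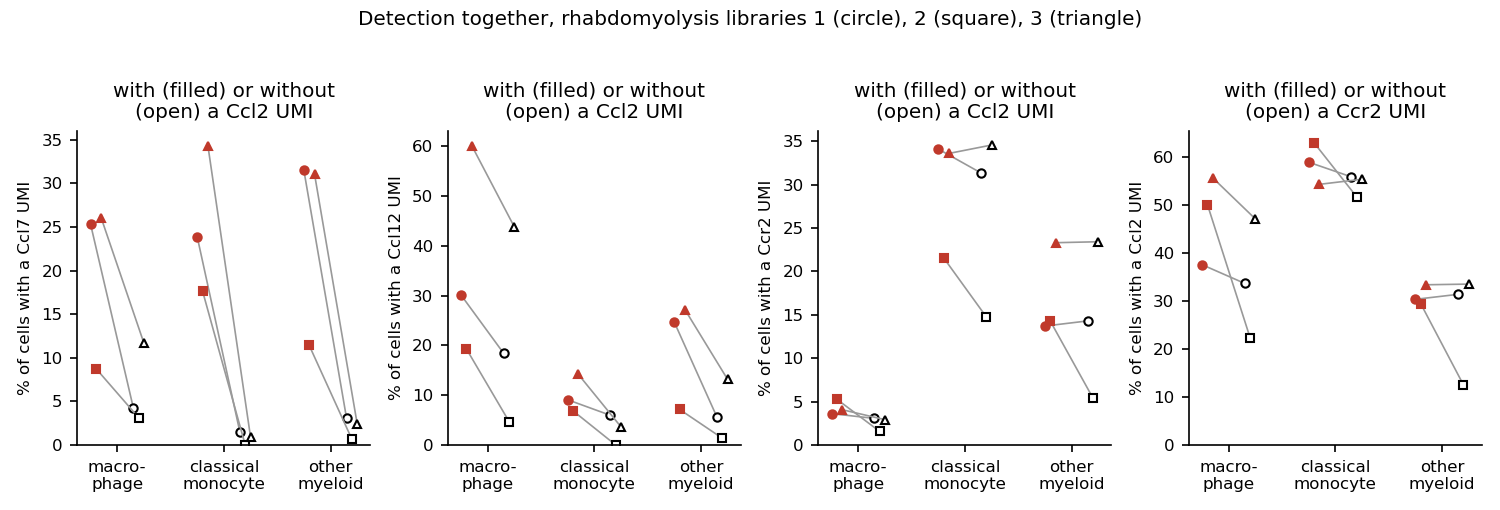
Percent of macrophages, classical monocytes and other myeloid cells with a UMI of the gene on each vertical axis, among cells with (filled) and without (open) a UMI of the gene in the panel title, each cell thinned to 1000 UMIs, in rhabdomyolysis libraries 1 (circle), 2 (square) and 3 (triangle). Ccl7 and Ccl12 are found more often in cells with Ccl2 in all 3 libraries and classes, while Ccr2 and Ccl2 show no common direction in classical monocytes.

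Free RNA and barcodes outside the used cells carried the same transcripts. Barcodes with 100 or fewer UMIs held Ccl2 at 1574, 891 and 1102 CPM in rhabdomyolysis libraries and 91.4, 66.7 and 69.4 CPM in control libraries. Free RNA made up an estimated 8.08%, 3.16% and 2.26% of B cell UMIs in rhabdomyolysis libraries and 1.88%, 1.97% and 2.43% in control libraries. With this share subtracted from macrophages, the log2 changes were 3.98 for Ccl2, 4.72 for Ccl7 and -2.56 for Ccr2. Cells with endothelial markers, 15, 37 and 18 in rhabdomyolysis libraries and 43, 22 and 26 in control libraries, carried 985, 621 and 865 CPM of Ccl2 in rhabdomyolysis libraries and 37.6, 0 and 17.8 CPM in control libraries, with no test for want of cells.

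Markers of other cells moved with these results inside the macrophage gate. The summed panel of 6 classical monocyte markers stood at 221, 234 and 165 CPM in macrophages of rhabdomyolysis libraries and at 4.22, 3.52 and 2.97 CPM in control libraries, with Ly6c2 at 0, 0.601 and 0 CPM in rhabdomyolysis libraries and 0.958, 0.753 and 0.297 CPM in control libraries. The summed macrophage panel itself was 28240, 25990 and 26490 CPM in rhabdomyolysis libraries and 27120, 25180 and 24650 CPM in control libraries. H2-Ab1, a class II antigen presentation gene, was at 879, 933 and 1063 CPM in macrophages of rhabdomyolysis libraries and at 18250, 18360 and 18390 CPM in control libraries. In T cells the summed macrophage panel stood at 1235, 708 and 598 CPM in rhabdomyolysis libraries and 532, 334 and 466 CPM in control libraries. In dendritic cells the classical monocyte panel stood at 18.6, 206 and 34.7 CPM in rhabdomyolysis libraries and 11.8, 7.19 and 20.6 CPM in control libraries. The part of these markers in the results was not tested.

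The rest of the chemokine system was followed in 6 lists. Among other CC chemokine receptors, Ccr1, a receptor for Ccl7 among others, rose to 430, 426 and 333 CPM in macrophages of rhabdomyolysis libraries, against 24.7, 16.6 and 8.32 CPM in control libraries (log2 change 4.64 ± 0.34, edgeR, adjusted p = 4.2e-05). Thus Ccr1 and Ccr2 moved in opposite directions in the summed counts of the macrophage gate. Whether they did so in the same cells was not tested. Of 9 other CC chemokine receptors 2 were tested in macrophages, 1 rose and 1 fell, where 40.0% of all genes tested were called.

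Of 14 other CC chemokines 6 were tested in macrophages, with 1 higher and 1 lower, where 40.0% of all genes tested were called. Their median log2 change was 0.18 beside -0.02 over all genes. Ccl5, a chemokine that attracts T cells and monocytes, fell to 2.21, 29.5 and 4.78 CPM in rhabdomyolysis libraries, against 135, 152 and 148 CPM in control libraries (log2 change -3.58 ± 0.57, edgeR, adjusted p = 0.0014). In macrophages and classical monocytes joined, 7 were tested, 3 rose and 1 fell, where 54.4% of all genes tested were called. Ccl9 and Ccl6, mouse chemokines that act on Ccr1, rose there by log2 changes of 2.21 ± 0.14 (edgeR, adjusted p = 9.9e-07) and 1.38 ± 0.14 (adjusted p = 2.6e-05), and Ccl24 by 2.84 ± 0.68 (adjusted p = 0.0049). Within macrophages alone Ccl9 changed by 0.51 ± 0.20 and Ccl6 by -0.14 ± 0.16, and neither passed (edgeR, adjusted p = 0.065 and 0.52).

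Signals that attract or sustain monocytes by other routes went both ways. In macrophages 4 of 7 were tested, 1 rose and 2 fell, with a median log2 change of -0.46, where 40.0% of all genes tested were called. Cx3cr1, the fractalkine receptor, fell to 65.3, 22.3 and 235 CPM in rhabdomyolysis libraries, against 670, 695 and 606 CPM in control libraries (log2 change -2.52 ± 0.62, edgeR, adjusted p = 0.011). Csf1r, the receptor for the macrophage growth factor Csf1, fell by 0.82 ± 0.20 in log2 units (adjusted p = 0.0096) and Csf2rb, the shared beta chain of the Csf2 receptor, rose by 0.83 ± 0.23 (adjusted p = 0.018). Csf1 itself rose in macrophages and monocytes joined by 1.53 ± 0.43 (adjusted p = 0.011), at no more than 6.20 CPM in any library. Of 5 atypical and scavenging receptors only Ccrl2 was tested in macrophages; it rose to 135, 162 and 56.9 CPM in rhabdomyolysis libraries, against 31.2, 33.7 and 46.0 CPM in control libraries (log2 change 1.75 ± 0.35, edgeR, adjusted p = 0.0042).

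Downstream of the receptors, 20 of 23 signalling genes and regulators were tested in macrophages, 3 rose, 5 fell and 12 did not pass, with a median log2 change of -0.17; that is 8 of 20 called, a share like the 40.0% of all genes tested. Rgs1, which speeds the shut-off of G proteins, rose to 3826, 3737 and 2134 CPM in rhabdomyolysis libraries, against 760, 736 and 934 CPM in control libraries (log2 change 2.08 ± 0.24, edgeR, adjusted p = 0.00032). Grk3, a kinase that marks active receptors for arrestin, fell by 1.78 ± 0.23 (adjusted p = 0.00052) and Prex1, an activator of Rac that G proteins switch on, fell by 1.32 ± 0.16 (adjusted p = 0.00042). Rgs18 was tested in macrophages and monocytes joined and rose by 2.76 ± 0.30 (adjusted p = 3.5e-05). Of 12 adhesion genes 11 were tested in macrophages, 3 rose and 2 fell, also near the 40.0% called over all genes. Itgam, the alpha chain of the integrin Mac-1, rose to 306, 365 and 408 CPM in rhabdomyolysis libraries, against 46.0, 58.5 and 42.2 CPM in control libraries (log2 change 2.96 ± 0.18, edgeR, adjusted p = 1.6e-05). Itga4, a chain of the integrin that binds Vcam1, fell by 1.94 ± 0.22 (adjusted p = 0.00025). Cd44, a hyaluronan receptor, rose in macrophages and monocytes joined by 2.23 ± 0.15 (edgeR, adjusted p = 1.8e-06). For Rgs18 and Cd44 in the joined class, more monocytes and more RNA per cell cannot be told apart.

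Likeness of log2 CPM across 41 sums of class and library was compared among 7334 genes. Left out were the marker panel genes, the general myeloid genes, the 5 genes themselves and genes with a mean under 10 CPM. Among the genes compared, those that ran most like Ccl2 were Tgfbi (Pearson r = 0.89), Lrp1 (0.89) and Ccl9 (0.87). For Ccl7 they were Ctsl (0.82), Msr1 (0.81) and Tuba1c (0.80), for Ccl12 Ang (0.86), Ctsb (0.85) and Lamp1 (0.84), for Ccl8 Dock8 (0.68), Itga9 (0.67) and Selenop (0.66), and for Ccr2 Otulinl (0.89), Raph1 (0.87) and Cyp4f16 (0.86). Among the 5 genes themselves, r was 0.79 for Ccl2 with Ccl7, 0.72 for Ccl2 with Ccl12, 0.70 for Ccl7 with Ccl12, and 0.36 for Ccl2 with Ccr2. These sums share libraries and classes, so the values describe likeness only.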

How the data were processed

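The deposited matrices hold UMI counts per gene and barcode, made by the authors with Cell Ranger 4, per the file headers, on mm10, per the submitters' processing notes. Barcodes with at least 500 UMIs, 200 genes and at most 15% mitochondrial UMIs were tested against free RNA (barcodes of at most 100 UMIs, 10000 draws, adjusted p at most 0.001). Doublets were scored against simulated pairs (0.8% per 1000 cells) and Malat1 shares under 0.1% removed. A class needed 3 UMIs from 2 panel genes above free RNA (Poisson p under 0.001) and 3 times any other panel. Other myeloid cells met no class panel and needed 3 UMIs from 2 general myeloid genes above 20% of the free RNA level. Counts were summed by class and library, needing 20 cells, and tested with edgeR 4.0.16 in R 4.3.3 (quasi-likelihood, TMM factors, filterByExpr, Benjamini-Hochberg over all genes, threshold 0.05). DESeq2 1.42.0 was an alternative. Python 3.11.15, numpy 2.4.6, scipy 1.17.1 and scikit-learn 1.9.0 did the rest. Cells were thinned to 1000 UMIs for shares. Statistics were tested on simulated data. Members, lists and tests were chosen with earlier results of these data known. Of the lists, up to 4 genes each with the largest called change in macrophages, alone or joined with classical monocytes, are named. Some listed genes are not reported here.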

Additional observations from a re-analysis of the deposited data

Results flagged for a closer look

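Differences of the change between classes stood out for Ccr2 and Ccl2 when tested directly with the gate used here. These differences were not tested with panels gated against only part of the free RNA level. With that other gate the log2 change of Ccr2 in macrophages was -1.57, against -2.45 with the gate used here. The log2 change of Ccr2 in dendritic cells minus that in macrophages was 1.77, and that in NK cells minus that in macrophages was 1.87. The log2 change of Ccl2 in dendritic cells minus that in macrophages was -2.94. Barcodes removed for a low Malat1 share lie outside the comparisons, yet carried a mean of 644 CPM of Ccl2 and 213 CPM of Ccl7 in rhabdomyolysis libraries, above every control library (at most 30.3 CPM of Ccl2 and 12.7 CPM of Ccl7).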

How the results depend on the processing

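Over 75 results and 816 alternative values, 703 kept their direction and side of the threshold or stayed within the spread. Counts of called genes were instead held to a fixed factor around the main count. For shares of cells the side of the threshold was fixed in advance, since the exact permutation test gives no p under 0.10. Among these, the Ccr2 difference in other myeloid cells went from -14.2 to -3.10 percentage points without thinning. Ccl12 in macrophages missed the threshold with DESeq2 (1.73, adjusted p = 0.11), without doublet removal (1.63), less free RNA (1.67) and with panels gated against 20% of free RNA (1.69), and ranged from 0.63 to 2.18 with single libraries left out. Keeping Malat1-poor barcodes ended the Ccl8 calls in macrophages (-0.010), in macrophages and classical monocytes joined (-0.83) and over all cells (-0.60); with libraries left out, Ccl8 in macrophages ranged from -3.37 to -1.87. In the joined class Ccl12 passed with no expression filter (1.03), with the replicate block (0.78) and with Malat1-poor barcodes (1.28), and ranged from 0.23 to 1.45 with libraries left out. Ccr2 in the joined class turned to 0.0055 with RLE factors, 0.0051 with DESeq2 and 0.0046 less free RNA, and ranged from -0.27 to 0.23. Ccr2 in NK cells missed the threshold with DESeq2 (-0.94), with the replicate block (-1.11) and without doublet removal (-1.08), and ranged from -1.16 to -0.80. With libraries left out, Ccr2 ranged from -0.89 to -0.82 in dendritic cells and from -1.35 to -0.79 in other myeloid cells, and Ccl12 from -7.35 to 1.42 in dendritic cells, from 1.32 to 2.34 over all cells and from 1.86 to 2.75 in other myeloid cells. The Ccl7 difference between classical monocytes and macrophages passed with no filter (1.08), Malat1-poor barcodes (1.10), a stricter gate (1.21) and the gate against 20% of free RNA (0.66), with a range of 0.49 to 1.64. Of differences of the change, each minus that in macrophages, Ccl12 in dendritic cells (main -1.67, adjusted p = 0.056) passed in 4 of 6 alternatives, with library totals (-1.74) and without rhabdomyolysis library 2 or 3 or control library 3 (range -8.91 to -0.66). Ccl2 in T cells (main 1.92, adjusted p = 0.25) passed in 3 of 8, with a stricter gate (3.25) and without rhabdomyolysis library 3 or control library 2 (range -0.69 to 5.94), and turned without rhabdomyolysis library 2, and Ccr2 in NK cells ranged from 1.41 to 2.01. The causes were not tested.

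Called genes numbered 1131 in other myeloid cells with the gate against 20% of free RNA (main 3207), 788 in dendritic cells with no filter (main 479), 362 in B cells with no filter (main 223), and 100 with DESeq2, 51 with the replicate block and 111 without doublet removal in NK cells (main 229). With libraries left out they ranged from 2172 to 4997 in macrophages, 1744 to 4320 in other myeloid cells, 236 to 877 in dendritic cells, 493 to 802 in T cells, 88 to 409 in NK cells and 94 to 381 in B cells. Library totals moved the median log2 change of all genes to -0.30 over all cells, -0.20 in T cells, -0.23 in NK cells, -0.15 in other myeloid cells and -0.16 in the joined class, and the share of calls that were higher to 28.8% over all cells (main 52.8%), 35.3% in T cells (59.7%), 31.5% in NK cells (64.2%) and 39.8% in other myeloid cells (51.0%). Same-numbered libraries correlated at 0.069, 0.046 and 0.075 over all cells, and differently numbered ones at -0.061 to -0.00046. In macrophages same-numbered libraries gave 0.097, 0.17 and 0.080, and the others -0.14 to 0.050. In T cells same-numbered libraries gave 0.071, 0.013 and 0.0031, and the others -0.045 to 0.032. The main tests did not pair libraries by number, and the replicate block was an alternative. Whether same-numbered libraries share a batch was not tested. The gate against 20% of free RNA and the class of other myeloid cells were chosen after seeing the data. So was the split of the monocyte gate by Spp1, Arg1 and Ly6c2. Rare transcripts such as Ccl8 are limited by depth.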
